A study of Rattus norvegicus with 20 samples.

Results

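A set of 10 genes of corticosteroid signalling was followed in the rat central nucleus of the amygdala: the receptors Nr3c1 and Nr3c2, the steroid-activating enzyme Hsd11b1, the receptor co-chaperones Fkbp4 and Fkbp5, and the transcripts Tsc22d3, Sgk1, Ddit4, Errfi1 and Sult1a1, which respond to glucocorticoids in many tissues. They were chosen by name, as the probe sets that the array annotation assigns to exactly 1 of these symbols, which gave 12 probe sets for 10 genes among 31099 probe sets naming 14217 genes. The value of a gene is that of its probe set with the highest mean over all 20 arrays, and all 10 main probe sets passed the filter on dim signals. The ethanol group was 10 P (alcohol-preferring) rats that had access to 15% and 30% ethanol in adolescence; the P line was selected over generations for voluntary drinking of alcohol. The water group was 10 P rats that had water only, so that both groups carry the same selected background. The labels used here give no age at tissue collection, sex, ethanol intake, time since the last access or corticosterone level. Each array holds the RNA of 1 animal, and values are log2 probe set signals, on which a difference of 1 is a doubling.

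Corticosterone, the main glucocorticoid of the rat, enters cells and binds 2 related nuclear receptors. The mineralocorticoid receptor (Nr3c2) has the higher affinity, and the glucocorticoid receptor (Nr3c1) is occupied more fully at stress levels of the hormone. Both are held ready for ligand by Hsp90 and its co-chaperones, and the bound receptor enters the nucleus and acts at glucocorticoid response elements. The central amygdala is the main output nucleus of the amygdala, built mostly of GABA neurons, and takes part in stress and alcohol responses.

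The arrays had medians between 7.92 and 7.96, and the correlation between any pair of arrays lay between 0.977 and 0.997. Ethanol animal 5, water animal 15 and water animal 18 stood apart from the rest, each with a mean correlation to the other arrays below 0.99. In accession order the arrays fall into 3 runs, with 4 animals per group in the first, 4 in the second and 2 in the last. No label names these runs as a batch, and they are given beside the results because both groups occur in each. All 11 measured markers of central amygdala neurons passed the filter, with a mean score of 11.24 to 12.15 in ethanol animals and 11 to 11.96 in water animals. Of these markers, 10 were higher in mean in ethanol animals and 1 lower. Markers of myelin ran lower in ethanol animals, with all 13 measured members lower and scores of 10.79 to 12.33 in ethanol animals against 11.41 to 12.57 in water animals. Choroid plexus markers (8 of 8), meningeal markers (10 of 10) and astrocyte markers (10 of 11) were also lower in mean, and pan-neuronal markers (10 of 10) higher. Only 4 of the 8 choroid plexus markers and 8 of the 10 meningeal markers passed the filter. The choroid plexus score ran from 6.68 to 11.19 in ethanol animals and from 6.89 to 11.69 in water animals. Of all 18625 probe sets past the filter, 7863 were lower and 10762 higher in mean in ethanol animals.

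None of the 10 genes passed the adjusted threshold of 0.05 between ethanol and water animals (limma, Benjamini-Hochberg adjustment over 18625 probe sets), where 4 probe sets did, or 0.0215%. At an unadjusted p under 0.05 the count was 3 of the 10, Sgk1, Errfi1 and Sult1a1, against 12.8% of all probe sets. All 3 were lower in mean in ethanol animals, a direction in which 5.48% of all probe sets passed that unadjusted threshold. The receptors, the enzyme and the co-chaperones had mean differences between -0.01 and 0.13. In bulk tissue, fewer cells of a type and less RNA per cell cannot be told apart in any of these differences.

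**Figure D1:**
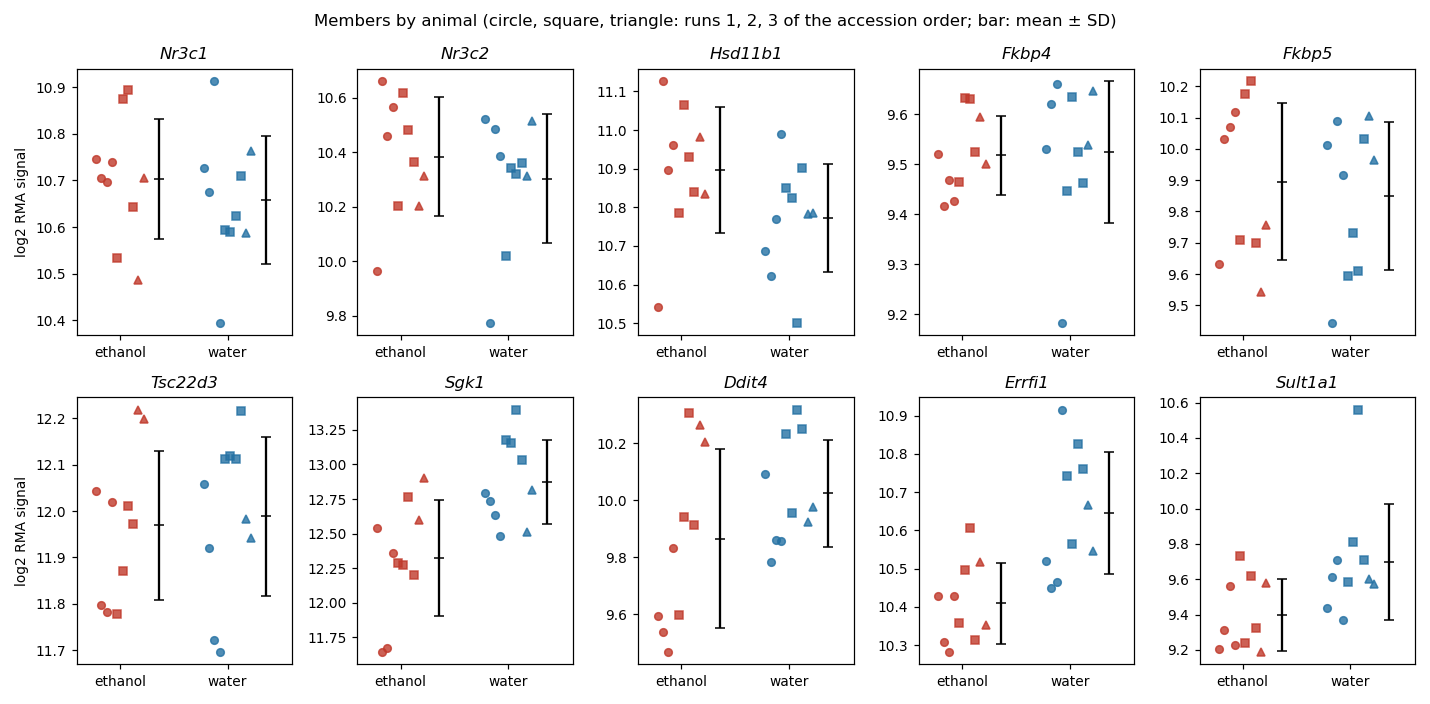
Log2 signal of each of the 10 genes in every animal (vertical axes, 1 panel per gene), with ethanol animals on the left and water animals on the right. Points are animals, their shapes mark the 3 runs of the accession order, and bars give the mean ± SD of 10 animals. All 10 ethanol points of Errfi1 lie below the water mean of 10.65, while both receptors overlap across their range.

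The promoters of the 3 genes with an unadjusted p under 0.05 are shown because glucocorticoid response elements are the sites through which the receptors act on their targets. The sequences are the 250 bases before the annotated start, 5′ to 3′, from RefSeq on build GRCr8. Capitals mark the window of 15 bases with the fewest mismatches to the palindromic element AGAACA, any 3 bases, then TGTTCT, which reads the same on both strands. The Sgk1 promoter, the best matching of 3 annotated starts, is at chr1:24804832-24805081 on the minus strand. Errfi1 is at chr5:166606591-166606840 on the plus strand, and Sult1a1 at chr1:190706113-190706362 on the minus strand.
Sgk1 promoter: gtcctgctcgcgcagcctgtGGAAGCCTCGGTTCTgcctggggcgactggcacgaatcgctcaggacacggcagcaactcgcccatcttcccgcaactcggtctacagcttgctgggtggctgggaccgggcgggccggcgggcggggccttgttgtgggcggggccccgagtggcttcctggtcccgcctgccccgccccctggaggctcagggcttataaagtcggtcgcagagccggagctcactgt
Errfi1 promoter: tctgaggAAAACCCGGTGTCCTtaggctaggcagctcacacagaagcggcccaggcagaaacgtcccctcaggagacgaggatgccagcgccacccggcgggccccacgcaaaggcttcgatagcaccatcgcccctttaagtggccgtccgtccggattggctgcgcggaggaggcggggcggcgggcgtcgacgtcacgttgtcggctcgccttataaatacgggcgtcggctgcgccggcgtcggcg
Sult1a1 promoter: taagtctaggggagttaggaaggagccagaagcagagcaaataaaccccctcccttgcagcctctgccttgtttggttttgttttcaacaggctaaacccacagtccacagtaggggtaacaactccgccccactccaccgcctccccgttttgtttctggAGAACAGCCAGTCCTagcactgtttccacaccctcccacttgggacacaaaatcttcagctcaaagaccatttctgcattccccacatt
The Sult1a1 window departs from the element at 2 of its 12 fixed letters and lies 89 to 75 bases before the start. It holds the exact arm AGAACA, and it is the only one of 13 annotated windows of these genes with an exact arm, which 20.7% of all 33469 promoter windows of the same 300 bases (250 before and 50 after the start) hold. A match with up to 2 mismatches occurred in 1.87% of all windows. The best Errfi1 window had 3 mismatches, a level met by 14.7% of windows, and the best Sgk1 window had 4, met by 58.2%. Of the 10 genes, 8 were found in the promoter table. These matches describe letters only, and they say nothing of binding here.

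Nr3c1 and Nr3c2 did not differ between the groups beyond the spread of animals. Nr3c1 signal ran from 10.49 through a median of 10.71 to 10.89 in ethanol animals, and from 10.39 through 10.65 to 10.91 in water animals. The difference was 0.04 (SE 0.06, 95% interval -0.08 to 0.17, adjusted p = 0.767). A second Nr3c1 probe set, below the filter with a mean of 4.86, differed by 0.05 (SE 0.05) in the fit without a filter. Nr3c2 signal ran from 9.96 through 10.41 to 10.66 in ethanol animals, and from 9.77 through 10.35 to 10.52 in water animals. Its difference was 0.08 (SE 0.10, 95% interval -0.12 to 0.28, adjusted p = 0.74). With the central amygdala score in the fit, an alternative added after the data were seen, it was 0.02 (SE 0.05, adjusted limma p = 0.884). For both receptors the 2 groups covered nearly the same range, and the lowest animal was a water animal. The intervals leave room for a change of up to 0.17 for Nr3c1 and 0.28 for Nr3c2 in the upward direction, which 10 arrays per group cannot resolve from 0.

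Hsd11b1 encodes 11β-hydroxysteroid dehydrogenase type 1, which regenerates active corticosterone from 11-dehydrocorticosterone inside cells. Its signal was 10.54, 10.91 and 11.13 (lowest, median and highest) in ethanol animals and 10.50, 10.78 and 10.99 in water animals. The difference was 0.13 (SE 0.07, 95% interval -0.01 to 0.26, adjusted p = 0.426), and 9 of 10 ethanol animals lay above the water mean. Within the 3 runs the difference was 0.12, 0.14 and 0.12, and with the myelin score in the fit it was 0.07 (adjusted p = 0.681). Hsd11b1 was the member whose difference varied least across the runs, yet the groups overlapped over most of their range.

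Fkbp4 and Fkbp5 encode FK506-binding immunophilins that compete for the same place in the receptor complex. In mammalian cells FKBP52, the Fkbp4 product, favours transport of the receptor to the nucleus, and FKBP51, the Fkbp5 product, lowers its hormone affinity and is itself induced by glucocorticoids. Fkbp4 signal ran from 9.42 through 9.51 to 9.63 in ethanol animals and from 9.18 through 9.53 to 9.66 in water animals, a difference of -0.01 (SE 0.05, adjusted p = 0.97). The lowest value, 9.18, belonged to water animal 15, one of the 3 arrays that stood apart. Fkbp5 signal ran from 9.54 through 9.90 to 10.22 in ethanol animals and from 9.44 through 9.94 to 10.10 in water animals. Its difference was 0.05 (SE 0.10, 95% interval -0.17 to 0.26, adjusted p = 0.876). The second Fkbp5 probe set gave 0.01 (SE 0.13), and the pair correlated at r = 0.782 over 20 animals relative to their group means. Values of the main Fkbp5 probe set were unevenly spaced among ethanol animals: 5 lay between 9.54 and 9.76 and 5 between 10.03 and 10.22, with none between those sets. The second probe set repeated this division except for ethanol animal 3. By it the lower 5 animals lay between 7.36 and 7.71, and ethanol animal 3, of the upper set at 10.07, was among them at 7.70. The rest of the upper set lay between 7.94 and 8.27.

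Sgk1 encodes a serine/threonine kinase that acts on ion channels and transporters and that was first cloned as a serum- and glucocorticoid-induced transcript. Its signal was 11.64, 12.32 and 12.90 (lowest, median and highest) in ethanol animals, against 12.49, 12.80 and 13.40 in water animals. The mean was 12.32 ± 0.42 in ethanol animals and 12.87 ± 0.31 in water animals (SD, n = 10 each), a difference of -0.55 (SE 0.15, 95% interval -0.87 to -0.23), or 1.46-fold lower. The unadjusted limma p was 0.0016 and the adjusted p 0.239. In all, 6 ethanol animals lay below every water animal and 4 water animals above every ethanol animal. The difference was -0.61 in the first run and -0.81 in the second, but 0.09 in the last, where the means were 12.75 in 2 ethanol animals and 12.67 in 2 water animals. With the myelin score in the fit the Sgk1 difference was -0.30 (SE 0.09, adjusted p = 0.233), and with the astrocyte score it was -0.30 (SE 0.15, adjusted p = 0.71). Without the 3 arrays that stood apart it was -0.53 (SE 0.16, adjusted p = 0.402).

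Errfi1 encodes MIG6, an inhibitor of the EGF receptor family that glucocorticoids induce in several cell types. Its signal was 10.28, 10.39 and 10.61 in ethanol animals, against 10.45, 10.62 and 10.92 in water animals. The means were 10.41 ± 0.11 in ethanol animals and 10.65 ± 0.16 in water animals (SD, n = 10 each). The difference was -0.24 (SE 0.06, 95% interval -0.36 to -0.11), or 1.18-fold lower, with an unadjusted p of 0.000765 and an adjusted p of 0.201. Errfi1 was the only one of the 10 genes with every ethanol animal below the water mean, a pattern that 1.57% of all probe sets showed. The direction was the same in each run, at -0.23, -0.28 and -0.17, and the difference was -0.22 with the myelin score in the fit and -0.17 (SE 0.06, adjusted p = 0.413) without the 3 arrays that stood apart. Of the 10 ethanol animals, 7 lay below every water animal.

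Sult1a1 encodes a phenol sulfotransferase that conjugates phenols and catecholamine metabolites and is glucocorticoid-responsive in rat liver. Its signal was 9.19, 9.32 and 9.73 in ethanol animals, against 9.37, 9.61 and 10.56 in water animals. The difference was -0.30 (SE 0.11, 95% interval -0.54 to -0.06, unadjusted p = 0.0164, adjusted p = 0.317), or 1.23-fold lower. The water mean exceeded 9 of the 10 ethanol animals, and 6 of them lay below every water animal. The value of 10.56 belonged to water animal 18, and without that animal the difference was -0.20 (SE 0.08, adjusted p = 0.444). Within runs it was -0.21, -0.44 and -0.21. With the pan-neuronal score in the fit, an alternative added after the data were seen, it was -0.08 (SE 0.11, adjusted p = 0.871).

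Tsc22d3 encodes GILZ, a leucine zipper protein that mediates part of the anti-inflammatory action of glucocorticoids, and Ddit4 encodes REDD1, an inhibitor of mTORC1 signalling. Tsc22d3 signal ran from 11.78 through 11.99 to 12.22 in ethanol animals and from 11.70 through 12.02 to 12.22 in water animals. Its difference was -0.02 (SE 0.07, 95% interval -0.17 to 0.13, adjusted p = 0.93). Ddit4 signal ran from 9.47 through 9.87 to 10.31 in ethanol animals and from 9.78 through 9.96 to 10.32 in water animals. Its difference was -0.16 (SE 0.11, 95% interval -0.39 to 0.07, adjusted p = 0.533), and 4 ethanol animals lay below every water animal. Both genes varied by run: the Ddit4 difference was -0.29, -0.25 and 0.28, and that of Tsc22d3 was 0.06, -0.23 and 0.24. The last run, with 2 animals per group, was thus the one in which Sgk1, Ddit4 and Tsc22d3 all had higher means in ethanol animals. Fkbp5 changed sign the other way there, with differences of 0.10, 0.21 and -0.38 within the runs. Its second probe set gave 0.11, 0.15 and -0.49. Nr3c2 also turned negative in the last run, at 0.12, 0.16 and -0.16, as did Nr3c1, at 0.045, 0.107 and -0.080.

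**Figure D2:**
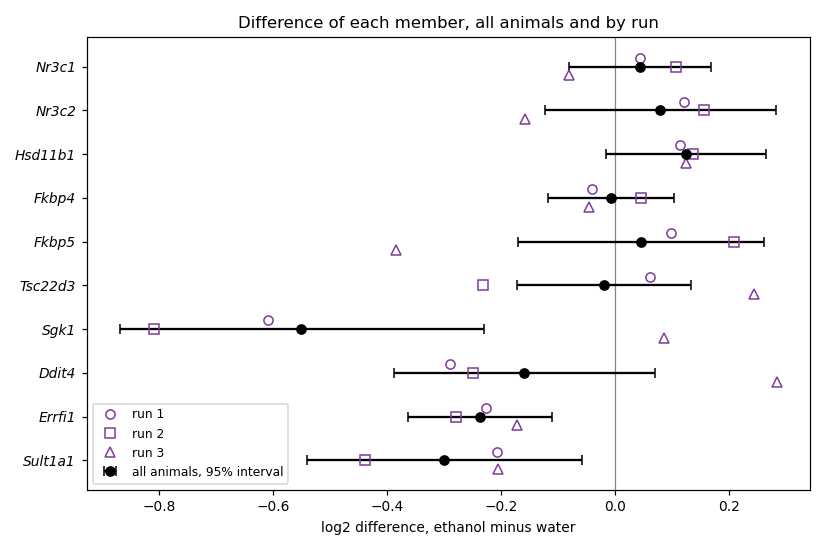
Log2 difference of each gene, ethanol minus water (horizontal axis), with the 95% interval from the fit over 20 animals (black point and bar) and the difference within each run (open symbols). The intervals of Sgk1, Errfi1 and Sult1a1 lie below 0, and the run 3 symbol of Sgk1, at 0.09, lies outside its interval of -0.87 to -0.23. The run 3 symbols of Nr3c2, Fkbp5, Tsc22d3 and Ddit4 also lie outside their intervals.

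Covariation of the receptors with the readouts was then examined among the animals of each group, over 12 pairs in 2 groups, with Pearson r, a two-sided permutation test of 100000 resamples and adjustment over the 24 values. Of the 24, 3 passed, all involving Fkbp5 and all positive. Nr3c2 and Fkbp5 correlated at r = 0.831 in ethanol animals (rho = 0.794, permutation p = 0.00311, adjusted p = 0.0386, n = 10). In water animals r was 0.803 (rho = 0.527, permutation p = 0.00322, adjusted p = 0.0386, n = 10). By rho neither value passed (adjusted permutation p = 0.211 in ethanol animals and 0.738 in water animals). Relative to run means r was 0.826 in ethanol animals and 0.807 in water animals, and neither passed there (adjusted permutation p = 0.438 and 0.451). Without the 2 animals farthest from the median of Nr3c2, r was 0.908 in ethanol animals and 0.423 in water animals. Neither passed there (adjusted permutation p = 0.122 and 0.698). The value in water animals thus depended on those 2 animals, whose removal also narrows the range of Nr3c2. With 1 animal left out, r in water animals was 0.665 to 0.868 (adjusted permutation p up to 0.245). In ethanol animals it was 0.802 to 0.863 (adjusted permutation p up to 0.109), so that call was also lost in some of these settings. Without the arrays that stood apart r was 0.818 in ethanol animals and 0.869 in water animals (adjusted permutation p = 0.0651 for both). Within the upper or the lower set of 5 ethanol animals by the main Fkbp5 probe set no r was taken, since each has fewer than 6 animals.

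Nr3c1 and Fkbp5 correlated at r = 0.776 in ethanol animals (rho = 0.685, permutation p = 0.00573, adjusted p = 0.0458) and at 0.288 in water animals (permutation p = 0.424). The difference of 0.49 between these correlations did not pass a permutation test (p = 0.178, adjusted p = 0.981). In ethanol animals r was 0.586 without the 2 farthest animals (permutation p = 0.124) and 0.717 relative to run means (permutation p = 0.122). The call was also lost without any 1 of 9 of the 10 ethanol animals, at r of 0.689 to 0.804, and without any 1 of 4 water animals, which enter only through the adjustment. Nr3c1 and Errfi1 had r = -0.719 in water animals (rho = -0.612, adjusted permutation p = 0.0864) and 0.374 in ethanol animals, and their difference had a permutation p of 0.0654 and an adjusted p of 0.784. Water animal 15, whose array stood apart, had the lowest Nr3c1 and the highest Errfi1 signal of its group. Without the 2 farthest animals r was -0.378 in water animals and 0.649 in ethanol animals. Without the arrays that stood apart it was -0.513 in water animals and 0.337 in ethanol animals. None of the 12 differences of r between the groups passed, adjusted or not. The correlations of Nr3c1 with Tsc22d3, Sgk1 and Ddit4 lay between -0.132 and 0.115 in the 2 groups, but depended on the setting. Relative to run means they were 0.375, 0.453 and 0.662 in ethanol animals and 0.223, 0.385 and 0.198 in water animals. Without the arrays that stood apart they lay between -0.672 and 0.086. None passed adjustment in either setting.

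With both groups in 1 set, each animal relative to its group mean, an alternative added after the data were seen, 1 of the 12 receptor pairs passed. It was Nr3c2 with Fkbp5, at r = 0.815 over 20 animals (rho = 0.758, permutation p = 3e-05, adjusted p = 0.00036). The value was 0.772 without the 2 farthest animals, 0.815 relative to run means, and between 0.775 and 0.845 with each animal left out in turn. Both genes also followed the central amygdala marker score, with r = 0.894 for Nr3c2 (rho = 0.871, permutation p = 1e-05, the smallest the resamples can give, adjusted p = 0.0009 over 90 values) and 0.847 for Fkbp5 (rho = 0.818, adjusted permutation p = 0.0015). Those values were 0.843 and 0.799 without the 2 farthest animals and 0.888 and 0.860 relative to run means. After that score was removed from both, the correlation of Nr3c2 with Fkbp5 was 0.240, against 0.781 after removal of the myelin score. Animals high in both transcripts were thus also high in the score of central amygdala markers.

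**Figure D3:**
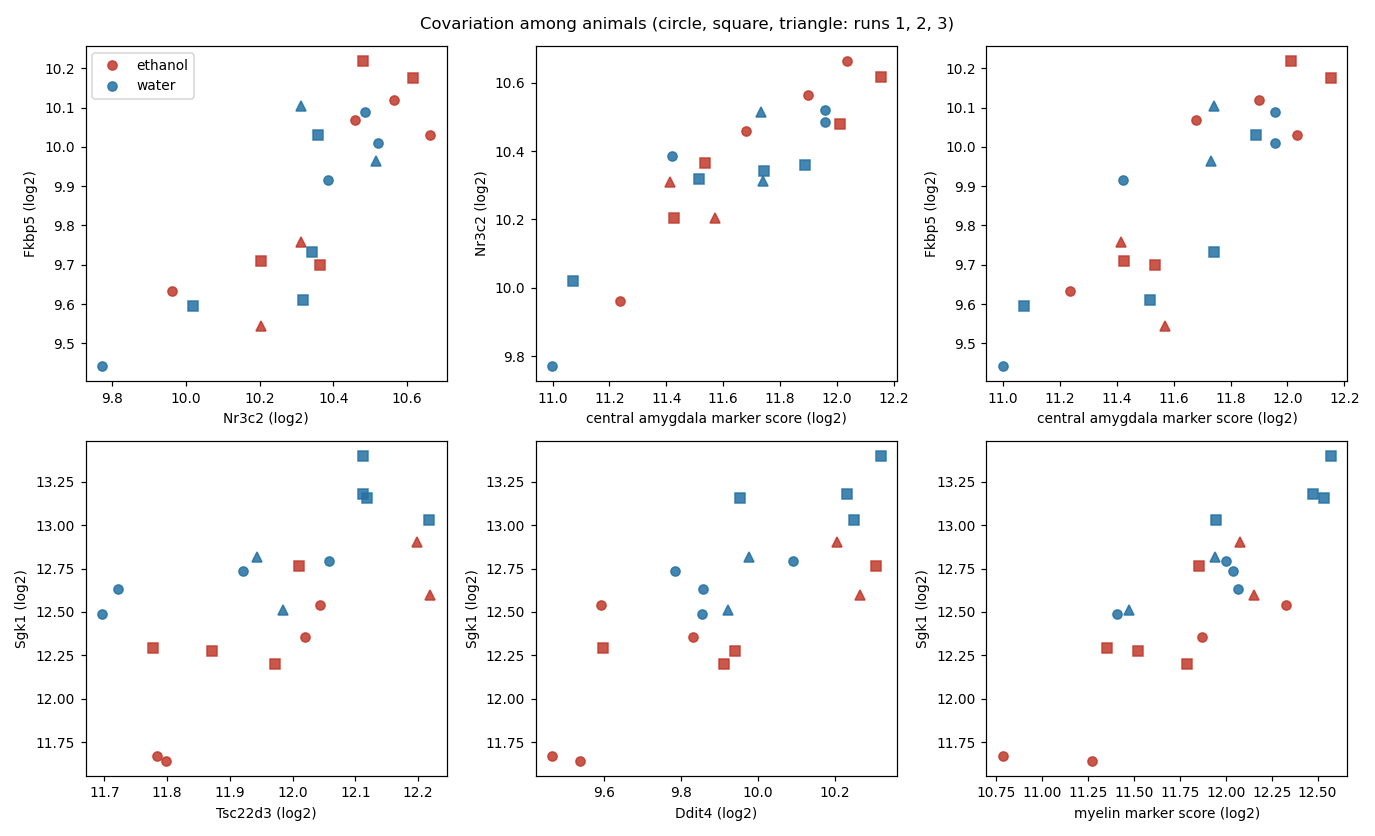
Animals plotted by the log2 signal of pairs of genes or by a gene and a marker score (mean log2 signal of its markers), with ethanol animals in red, water animals in blue and shapes for the 3 runs. The upper row shows Nr3c2, Fkbp5 and the central amygdala score high in the same animals of both groups, and the lower row shows Sgk1 with Tsc22d3, Ddit4 and the myelin score.

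Among the readouts, Tsc22d3, Sgk1 and Ddit4 had r between 0.759 and 0.803 with one another in both groups, but lower values relative to run means in water animals. Among the 15 pairs of the 6 readouts in each group, none of the 30 correlations passed adjustment and 8 had an unadjusted permutation p under 0.05. Tsc22d3 with Sgk1 had r = 0.803 in ethanol animals and 0.759 in water animals. Tsc22d3 with Ddit4 had r = 0.760 in ethanol animals and 0.760 in water animals, and Sgk1 with Ddit4 had 0.782 in ethanol animals and 0.786 in water animals. These 6 values had adjusted permutation p = 0.0564. Sgk1 with Sult1a1 in water animals had the same adjusted p (r = 0.719, rho = 0.503), but r = 0.071 in ethanol animals. Relative to run means the 3 pairs, in the same order, had r of 0.815, 0.743 and 0.573 in ethanol animals and 0.307, 0.416 and 0.384 in water animals, where Sgk1 with Sult1a1 had 0.564. Over all 20 animals relative to group means, 4 of the 15 pairs passed, Tsc22d3 with Sgk1 (r = 0.770, rho = 0.776), Tsc22d3 with Ddit4 (r = 0.731, rho = 0.678), Sgk1 with Ddit4 (r = 0.780, rho = 0.734) and Ddit4 with Errfi1 (r = 0.529, rho = 0.532). The adjusted permutation p was 0.00145 for the first 3 and 0.0355 for the last. Without the 2 farthest animals these 4 values were 0.768, 0.758, 0.723 and 0.401, and relative to run means they were 0.609, 0.597, 0.526 and 0.480.

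No correlation of Fkbp5 with these 3 readouts passed within groups in the main setting or over the 20 animals. Over the 20 animals r was -0.340 to Tsc22d3, -0.389 to Sgk1 and -0.073 to Ddit4 (permutation p = 0.152, 0.102 and 0.767). Relative to run means these were -0.050, -0.137 and 0.425, and after removal of the myelin score 0.065, 0.146 and 0.324. After removal of the central amygdala score, an alternative added after the data were seen, they were -0.432, -0.367 and -0.288. Within groups in that setting, Fkbp5 with Sgk1 passed in water animals (r = -0.770, adjusted permutation p = 0.0369) and had r = -0.043 in ethanol animals. Sgk1 followed the myelin score, at r = 0.851 (rho = 0.797, adjusted permutation p = 0.00135), which was 0.792 without the 2 farthest animals and 0.816 relative to run means. Within groups that r was 0.827 in ethanol animals and 0.896 in water animals. Tsc22d3 correlated with the myelin score at 0.711 (rho = 0.730, adjusted permutation p = 0.0133), at 0.614 without the 2 farthest animals and at 0.577 relative to run means. The microglia score gave 0.697 with Sgk1 (rho = 0.688, adjusted permutation p = 0.00382) and 0.655 with Tsc22d3 (rho = 0.684, adjusted permutation p = 0.0366), which were 0.628 and 0.567 without the 2 farthest animals. Relative to run means the microglia values were 0.499 and 0.266. After removal of the myelin score, Tsc22d3 with Sgk1 was 0.448, Tsc22d3 with Ddit4 0.570 and Sgk1 with Ddit4 0.695. Of the 90 correlations between genes and marker scores, these 4 and the central amygdala pair were the 6 that passed.

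**Figure D4:**
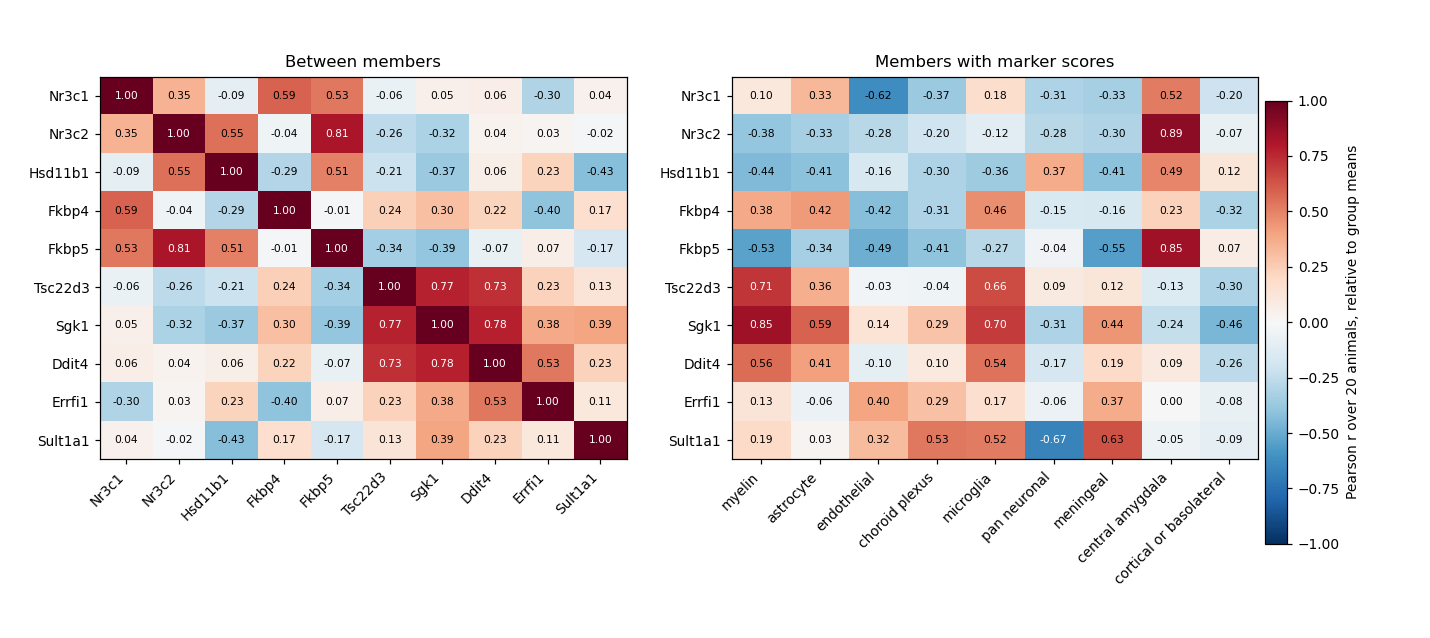
Pearson r over 20 animals, each relative to its group mean, between the 10 genes (left) and of each gene with 9 marker scores (right), on a colour scale from -1 to 1. Tsc22d3, Sgk1 and Ddit4 have r of 0.73 to 0.78 with one another, while Nr3c2 and Fkbp5 pair with each other and with the central amygdala score.

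The genes whose signal varied most like that of a member were taken from 10159 genes by Pearson r over the 20 animals relative to group means, as a description without a test. For Nr3c2 they were Crabp1 (r = 0.945), Rgs2 (0.906) and Syndig1l (0.886), and for Nr3c1 Plgrkt (0.840), Scg2 (0.812) and Mycl (0.807). Fkbp5 was nearest to Rbm34 (0.925), Camk1g (0.904) and Unc13c (0.902), and Tsc22d3 to Pex2 (0.869), Eml2 (0.849) and Ncl (0.845). Sgk1 was nearest to Arrdc2 (0.921), Pdk4 (0.919) and Plekhf1 (0.915), and all 3 are in the list of other glucocorticoid-induced genes used below. Relative to run means these 3 were 0.918, 0.852 and 0.830, and after removal of the myelin score 0.689, 0.681 and 0.651.

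The remaining pathway genes were taken from lists of textbook genes, chosen with earlier results of these data known and so not independent of them, and described by their counts beside those of all probe sets, 10762 of which were higher and 7863 lower in ethanol animals with a median of 0.02. Of the 26 other glucocorticoid-induced genes past the filter, 2 were higher and 24 lower in mean, with a median of -0.14. At an unadjusted p under 0.05 were 13 of the lower genes and 1 of the higher, where 5.48% of all probe sets were lower at that level. Of these, 1 passed the adjusted threshold: Angptl4, an inhibitor of lipoprotein lipase, fell to 9.22 ± 0.10 in ethanol animals, against 9.50 ± 0.10 in water animals (SD, n = 10 each; difference -0.27, SE 0.05, adjusted p = 0.034, lower in 10 of 10). With the myelin score in the fit, and with any 1 of 12 of the 20 animals left out, Angptl4 no longer passed. Pdk4, a kinase that inhibits pyruvate dehydrogenase, averaged 8.67 ± 0.60 in ethanol animals and 9.66 ± 0.37 in water animals (difference -0.99, SE 0.21, adjusted p = 0.14), and its second probe set differed by -0.10. Cdkn1a, the cell cycle inhibitor p21, averaged 8.54 ± 0.37 in ethanol animals and 9.17 ± 0.38 in water animals (difference -0.64, adjusted p = 0.178), and its second probe set differed by -0.72. With the myelin score in the fit the median of the whole list was -0.13. Choroid plexus and meningeal markers also ran lower in ethanol animals, and their part in the list's median was not tested.

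The chaperone and co-chaperone list lay near the background, with 13 of 17 genes higher in mean, 0 past the adjusted threshold and a median of 0.04, which was 0.01 without water animal 15. At an unadjusted p under 0.05, 2 of the 17 were higher, against 7.37% of all probe sets. Its smallest p-values belonged to Stub1, the ubiquitin ligase CHIP (difference 0.13, SE 0.06, adjusted p = 0.347), Hdac6, the deacetylase of Hsp90 (0.11, adjusted p = 0.382), and Ppp5c, a phosphatase of the receptor complex (0.11, adjusted p = 0.48). Of 14 coregulators 7 were higher and 7 lower, none at an unadjusted p under 0.05, with a median of -0.01. Hdac3 (0.09), Ncoa1 (0.08) and Hdac2 (0.06) came first by p, but the 2 other Ncoa1 probe sets differed by -0.001 and 0.003. Only 3 of 10 measured steroid supply genes passed the filter: Hsd11b1, Tspo, a mitochondrial cholesterol-binding protein (-0.37, SE 0.21, adjusted p = 0.445), and Abcb1a, the P-glycoprotein pump that carries steroids out at the blood-brain barrier (-0.10, SE 0.10, adjusted p = 0.651). The second Abcb1a probe set differed by 0.01. Of 6 repressed or feedback genes 2 were higher and 4 lower, with a median of -0.01, and the first by p were Nr4a1 (0.21, adjusted p = 0.682), Icam1 (-0.06, adjusted p = 0.874) and Jun (-0.01, adjusted p = 0.94). The 2 other Jun probe sets differed by 0.12 and 0.06. No gene of these 4 lists passed, at 0.0215% of all probe sets.

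**Figure D5:**
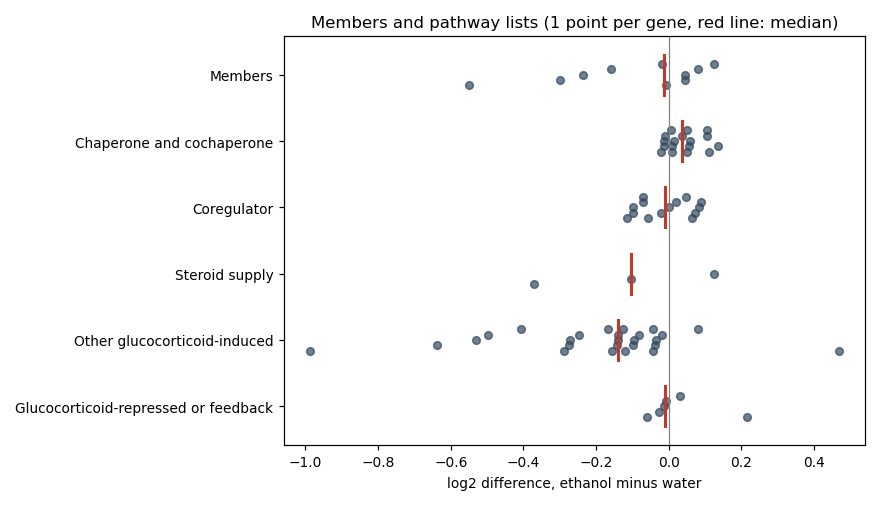
Log2 difference, ethanol minus water (horizontal axis), of each of the 10 genes and of the genes in the 5 pathway lists (1 point per gene past the filter, red line at the list's median). The other glucocorticoid-induced genes lie mostly below 0, with a median of -0.14 and Pdk4 at -0.99, while the chaperones have a median of 0.04.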

How the data were processed

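RNA of the central nucleus of the amygdala from 20 animals was hybridised as biotin-labelled cRNA to Affymetrix 3' arrays, per the labels' protocols. The authors deposited log2 signals summarised per probe set with RMA (robust multi-array average), per the submitters' processing notes, whose version these sources do not give. RMA shares probe effects across arrays and normalizes them by quantiles, so the values show relative differences of a probe set and not absolute amounts. The table held 31099 probe sets, of which 57 were controls. The annotation gave 1 symbol for 20826, several for 436 and none for 9780 others, and probe sets of several symbols were not named.

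Groups were taken from the labels, which do not say whether animals were littermates or hybridised in batches. Probe sets with a mean above the 40th percentile (log2 7.14) were kept, 18625 in all. The difference between ethanol and water animals came from limma (lmFit, then eBayes; version 3.58.1 under R 4.3.3), and its two-sided p-values were adjusted by Benjamini and Hochberg's method over all of them, with a threshold of 0.05. The limma fit over the probe sets past the filter was tested on simulated data. Correlations and their permutation tests were computed with numpy 2.4.6, with ranks and adjustment from scipy 1.17.1. A marker score is the mean log2 signal of a list's measured genes, 1 probe set each. Crh is in both the central amygdala and the feedback list, and Abcb1a and Slc2a1 are endothelial markers that also stand in pathway lists. The number of arrays limits the precision.

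The members and lists were chosen with earlier results of these data known. The text names all members, the pathway genes past the threshold and otherwise the 3 with the smallest p per list, and the 3 genes most like Nr3c1, Nr3c2, Fkbp5, Tsc22d3 and Sgk1. Alternatives changed the filter, the scaling, the array weights, covariates, the run as a block, the correlation measure and the animals. Files name no genome build, so no probe set positions are given.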

Additional observations from a re-analysis of the deposited data

Results flagged for a closer look

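Each of the 10 genes was examined for a single animal far from the rest of its group, over 20 gene and group combinations, of which chance singles out about 1 in 20. Fkbp4 in water animal 15, at 9.18, was separated from the nearest other water animal by 0.551 of the range of its group, above Dixon's critical value for 10 animals at the 95% level. Sult1a1 in water animal 18, at 10.56, was separated from the next water animal by 0.628 of the range. Both animals are among the 3 whose arrays stood apart over all probe sets. Without all 3 of them the difference was -0.04 for Fkbp4 (SE 0.04, adjusted p = 0.766) and -0.27 for Sult1a1 (SE 0.07, adjusted p = 0.365).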

How the results depend on the processing

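No member passed the adjusted threshold under any of 39 alternatives, and 3 had an unadjusted p under 0.05. Across them Sgk1 ranged from -0.61 to -0.30, Errfi1 from -0.26 to -0.17, Sult1a1 from -0.34 to -0.08, Ddit4 from -0.21 to -0.04 and Hsd11b1 from 0.05 to 0.17, and their lowest adjusted p-values were 0.105, 0.132, 0.143, 0.413 and 0.174. Members near 0 changed sign. Nr3c2 was -0.008 with the astrocyte score. Fkbp4 was 7e-05 with arrays centred on their medians, 0.028 with the myelin, 0.050 with the astrocyte, 0.008 with the microglia and 0.014 with the pan-neuronal score, and -0.045 to 0.008 with 1 animal left out. Fkbp5 was -0.057 with the myelin, -0.049 with the astrocyte, -0.019 with the choroid plexus, -0.035 with the meningeal and -0.012 with the central amygdala score. Tsc22d3 was 0.075 with the myelin, 0.051 with the astrocyte and 0.011 with the microglia score, and -0.052 to 0.006 with 1 animal left out. The cause was not tested.

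The number of receptor and readout correlations past the threshold, 3 in the main setting, was 0 with Spearman correlation, relative to run means, without the arrays that stood apart and without the 2 farthest animals, 1 after removal of the central amygdala score, 1 with both groups together (Nr3c2 with Fkbp5) and 0 to 4 with 1 animal left out. None of the 3 passed after removal of the central amygdala score (adjusted permutation p = 0.28 for Nr3c1 with Fkbp5 in ethanol animals, 0.933 for Nr3c2 with Fkbp5 in each group), and the 1 that did was Nr3c2 with Errfi1 in ethanol animals (r = -0.856, adjusted permutation p = 0.041, against r = -0.034 before), named after its values were seen. The readout pairs, 0 at the threshold, were 8 by unadjusted p, 1 without the 2 farthest animals, 9 after removal of the central amygdala score, 4 with both groups together and 0 to 7 with 1 animal left out, the 7 without ethanol animal 1. The pathway lists held 1 gene past the threshold, 0 with the myelin score and 0 to 1 with 1 animal left out. The cause of these changes was not tested. Where animals were left out, their number was also smaller, and the part of that was not tested either. No paired analysis was possible because no animal number occurs in both groups.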

Other observations

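The members were also set beside the 26 other glucocorticoid-induced genes by their correlations over the 20 animals relative to group means, as a description without a test, since all points share the same arrays. Ddit4 had a median r of 0.251 with these genes, against -0.016 with all 10159 genes, and 8 of the 26 exceeded 0.5, a level that 4.13% of all genes exceeded. Sgk1 had a median of 0.234, against 0.005 with all genes, and 10 of the 26 exceeded 0.5, against 12.4% of all genes. After removal of the myelin score these medians were 0.314 for Ddit4 and 0.370 for Sgk1, and relative to run means they were 0.184 and 0.157. The median with all genes was not taken in these settings. Sult1a1 (0.301), Errfi1 (0.229) and Tsc22d3 (0.115) had positive medians too, against 0.019, -0.013 and -0.027 with all genes. Relative to run means the medians were 0.144 for Sult1a1 and 0.138 for Errfi1. Fkbp5 had a median of -0.120, Nr3c1 of -0.031 and Nr3c2 of -0.047 with the same genes, against 0.031, 0.075 and -0.010 with all genes. For these members 2, 0 and 1 of the 26 exceeded 0.5, against 9.7%, 7.56% and 5.52% of all genes. Signs of the medians near 0 depended on the setting: relative to run means they were 0.049 for Fkbp5, 0.031 for Nr3c1 and -0.043 for Tsc22d3, and after removal of the myelin score -0.009 for Fkbp5 and 0.054 for Tsc22d3.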
